A study of Mus musculus with 3 samples.

Results

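Gap junction and cadherin genes were followed in CT26, a mouse colon carcinoma cell line. The genes are the connexins Gja1, Gjb2 and Gjc1, the cadherins Cdh1, Cdh2, Cdh3 and Cdh11, and Tjp1, a scaffold protein that binds both junction types. They are a list of 8 names, each matched by symbol to a probe set annotated to that gene alone, out of 19938 genes measured on the array. The names were chosen on the differences between the array columns, with results of these data in view, so every value below describes them and none is a test.

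The cells carried a vector with puromycin resistance and green fluorescent protein that held the miR-17~92 cluster or, in the control line, a control microRNA (group miR-Ctrl, called Ctrl below). Lines with the cluster were labelled as expressing it at a medium level (miR-17~92Med, called Med) or a high level (miR-17~92Hi, called Hi). All groups were transfected, selected with puromycin, sorted for fluorescence and grown out by dilution to single cells, so each line descends from selected clones. The design text gives 3 subclones per group, but 1 column of values stands for each group, and the sources do not say whether it is a subclone, a pool or a mean. With 1 column per group there is no replicate error, no standard deviation and no p-value anywhere below, and the number of arrays limits the precision.

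Connexins assemble into channels that join the cytoplasm of neighbouring cells and pass ions and small metabolites. Cadherins are calcium-dependent adhesion proteins that bind their like on the next cell and hold it through catenins and actin. Colon epithelium normally uses E-cadherin (Cdh1), while N-cadherin (Cdh2) and cadherin 11 are typical of mesenchymal cells, and exchange of the former for the latter is a known feature of epithelial-mesenchymal transition.

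The transfected cluster gives 6 main mature microRNAs, shown because they are the only planned difference between the lines. The capitals mark the seed, bases 2 to 8, which pairs with target messenger RNAs, and the sequences are RefSeq's for GRCm38.p6.
mmu-miR-17-5p: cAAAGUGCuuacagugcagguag
mmu-miR-20a-5p: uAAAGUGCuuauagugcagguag
mmu-miR-18a-5p: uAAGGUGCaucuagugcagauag
mmu-miR-19a-3p: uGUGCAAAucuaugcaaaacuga
mmu-miR-19b-3p: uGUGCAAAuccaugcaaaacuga
mmu-miR-92a-3p: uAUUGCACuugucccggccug
There are 4 distinct seeds, one shared by miR-17 and miR-20a and another by miR-19a and miR-19b. No search for target sites of these seeds in the junction genes was made.

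Promoter entries were not used for all of the 8 genes, and Cdh2 was among those left out. The 3 used are from RefSeq's table and run from 250 bases before to 50 bases after the start site. They are printed as the control regions of the connexin that differed most between the lines, of a connexin that did not differ between Med and Hi, and of the junction scaffold. Capitals mark the AP-1 element TGANTCA, the E-box CAGGTG and the GC box GGGCGG, on either strand.
Gja1, chr10:56377050-56377349, plus strand: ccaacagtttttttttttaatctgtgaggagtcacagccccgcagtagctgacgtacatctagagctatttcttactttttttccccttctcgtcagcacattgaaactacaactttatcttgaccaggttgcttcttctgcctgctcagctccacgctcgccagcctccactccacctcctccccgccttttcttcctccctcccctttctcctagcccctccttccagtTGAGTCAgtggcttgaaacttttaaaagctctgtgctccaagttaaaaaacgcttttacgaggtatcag
Gjb2, chr14:57104653-57104952, minus strand: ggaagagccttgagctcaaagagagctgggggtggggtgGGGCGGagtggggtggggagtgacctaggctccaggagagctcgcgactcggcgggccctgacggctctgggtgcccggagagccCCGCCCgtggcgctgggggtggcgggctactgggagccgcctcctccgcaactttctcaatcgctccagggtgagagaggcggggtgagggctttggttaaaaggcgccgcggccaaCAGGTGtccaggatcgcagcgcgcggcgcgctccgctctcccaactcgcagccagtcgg
Tjp1, chr7:65371195-65371494, minus strand: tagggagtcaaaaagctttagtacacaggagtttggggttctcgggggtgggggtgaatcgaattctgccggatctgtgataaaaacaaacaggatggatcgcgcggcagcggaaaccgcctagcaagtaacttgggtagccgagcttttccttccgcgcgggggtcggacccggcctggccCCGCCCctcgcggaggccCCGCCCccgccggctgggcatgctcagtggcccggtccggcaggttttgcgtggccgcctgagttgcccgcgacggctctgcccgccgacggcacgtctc
The Gja1 window held 1 AP-1 element, whose first base lies at -19 from the start site, and no E-box or GC box. Of all 32851 promoter windows, 7.81% held an AP-1 element, 20.2% an E-box and 35.7% a GC box. Gjb2 had 1 E-box, at -9, and 2 GC boxes, and Tjp1 had 2 GC boxes. The motifs searched do not overlap one another in these windows, and neither the TATA box TATAAA (13.6% of windows) nor the cAMP element TGACGTCA (1.79%) was in any of the 3. A match describes letters only.

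Facts of the whole table bear on every comparison with Ctrl. Across probe sets, which are not independent replicates, r was 0.787 between Ctrl and Med, 0.795 between Ctrl and Hi, and 0.992 between the lines with the cluster. Med and Hi held identical values in 43.7% of the 35556 probe sets, and all columns did in 7.92%. A gene counted as past the expression filter where its average level over the columns was at least 7.13, the median over genes. As the average takes in Med and Hi, a gene low in Ctrl can pass because it is high in those lines. Nedd4, Cav2, Pvr, Cldn12 and Dab2, named below, were among genes under 7.13 in Ctrl that passed. Counts of higher and lower genes past the filter therefore depend in part on the filter itself. Genes short of the filter were mostly lower than Ctrl, by a median of -0.67 in Med, and 87.1% of them had a lower value there. Olfactory and vomeronasal receptor genes, a gauge of background, had a median of 4.92 in Ctrl and 4.51 in Med and in Hi. Over these 1190 genes the SD of the difference between columns was 0.36 for Med minus Ctrl and 0.09 for Hi minus Med. The part of such a shift of the Ctrl column in any difference from Ctrl was not tested.

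As deposited, Gja1 and Cdh2 were the 2 of the 8 genes at least 2-fold apart between Med and Hi, both lower in Hi, and Cdh2 fell short of 2-fold under some scalings (-0.88 and -0.97). Gjb2, Gjc1, Cdh1 and Cdh11 had the same value in Med and Hi to the last digit deposited. Tjp1 was higher than Ctrl in both lines with the cluster, and Cdh3 was lower in both. Levels below are log2 array signals, and a difference of 1 is 2-fold. Levels of different genes are not compared, because probes differ in brightness.

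**Figure D1:**
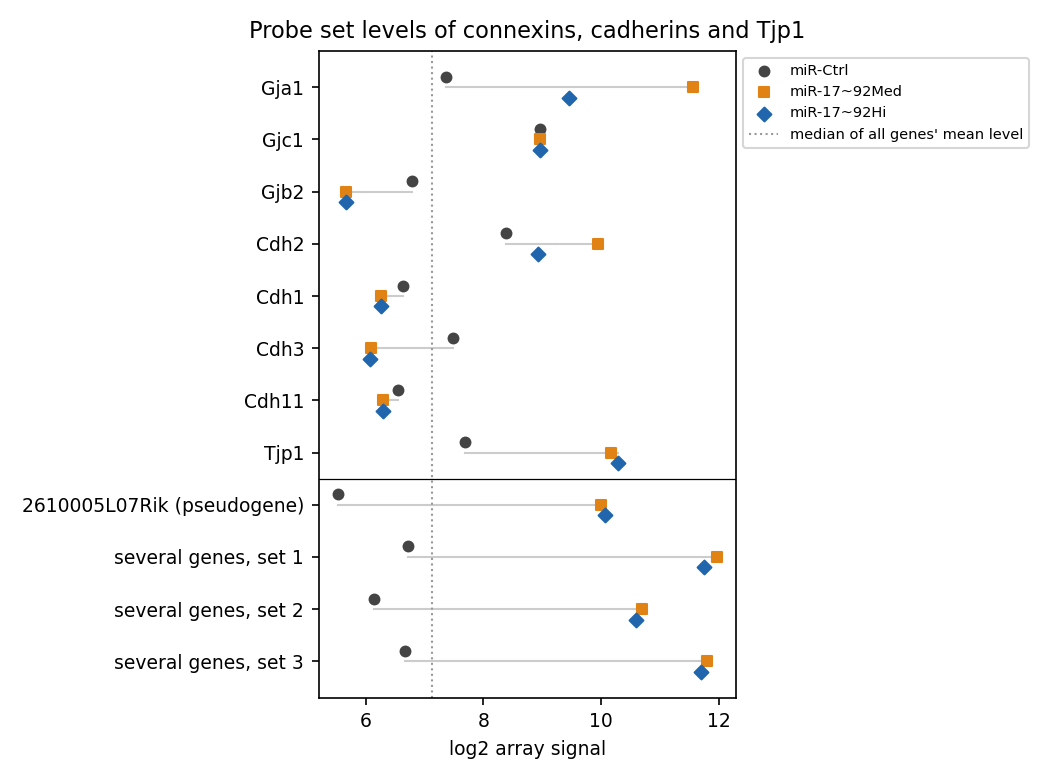
Level of each probe set in the Ctrl, Med and Hi columns, on a log2 scale, with 1 symbol per column; the lower block holds the pseudogene probe set and the 3 probe sets listed under Cdh11 and other genes, and the dotted line is the median of all genes' mean level, 7.13. Gja1 spreads from 7.36 to 11.55, Gjc1 sits at 8.95 in every column, and the lower block is at 9.99 or above in Med and Hi while Cdh11's own probe set stays between 6.29 and 6.54.

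Gja1 encodes connexin 43, the most widely expressed connexin. Its level was 7.36 in Ctrl, against 11.55 in Med and 9.44 in Hi. Med was thus the highest and Ctrl the lowest, and the order of the columns was not the order of the labelled cluster level. The difference was 4.20 for Med minus Ctrl (18.3-fold), 2.09 for Hi minus Ctrl (4.25-fold) and -2.11 for Hi minus Med (4.31-fold lower in Hi). Across the scalings tried, the values ran from 3.60 to 4.49, from 1.55 to 2.38 and from -2.12 to -1.91, so each kept its direction and stayed past 2-fold. Among the 9969 genes past the filter, the Gja1 difference of Hi minus Med was the 8th lowest. Its difference from Ctrl was the 130th highest in Med and the 1348th highest in Hi. Receptor genes at background lay between -0.61 and 0.66 for Hi minus Med.

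A pattern with Med at least 2-fold above Hi, and Hi at least 2-fold above Ctrl, was shared by 38 genes past the filter, Gja1 among them. Nearest to Gja1 in shape, by the distance between values once each gene's own mean over the 3 columns was taken off, was Dynap at 0.21 (levels 6.28, 10.26 and 8.44 in Ctrl, Med and Hi). Next came the NK receptor ligand Clec2d at 0.43 (5.58, 9.86 and 8.23) and the urea transporter Slc14a1, also at 0.43 (6.32, 10.36 and 7.82). The surface protein gene Ly6e followed at 0.54 (8.33, 13.27 and 10.93), then the syntaxin-binding gene Stxbp5 at 0.62 (6.91, 10.25 and 8.48). With 3 columns, such likeness is a description only.

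Gja1's nearest measured coding neighbours in the RefSeq gene order did not share its pattern. Msl3l2 on one side was at 6.91, 5.60 and 5.71, short of the filter. Hsf2, a heat shock transcription factor gene on the other side, was at 7.45 in Ctrl and 7.79 in Med and Hi. Neighbours were taken by position, outside the rule for named genes.

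Gjc1, a connexin of the gamma group, was at 8.95 in every column as deposited, with identical digits. Across the scalings tried its difference from Ctrl ran from -0.83 to 0.30 in Med and from -0.79 to 0.29 in Hi. Of the genes past the filter 10.5% had equal values in all columns, and 45.9% had equal values in Med and Hi, so an exact tie is common in this table. Gjb2, an epithelial connexin, was at 6.79 in Ctrl and 5.66 in Med and in Hi. That difference of -1.13 passes 2-fold as deposited and not when columns are centred on their medians (-0.83 in Med and -0.84 in Hi). Its neighbours in gene order, the connexins Gja3 and Gjb6, also had equal Med and Hi values below Ctrl, at 8.43 against 6.97 and at 6.29 against 5.25.

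In the wider connexin and pannexin list of 23 genes, 19 were matched to a probe set and 5 passed the filter. As deposited, Gja1 was the single matched gene higher than Ctrl, in both Med and Hi, while 17 were lower in both and Gjc1 was equal. Of all 19938 genes, 11046 were lower in both. With columns centred on their medians 4 of the 19 were higher in Med and 5 in Hi, beside 10616 and 10611 of all genes. Quantile normalization gave 3 in each line, beside 6919 and 6965, and centring on genes past the filter 1, beside 4764 and 4798. On the deposited scale 11 of the 19 were at least 2-fold lower in Med and 10 in Hi, beside 16.3% and 15.4% of all genes. That count rests on the scaling. It was 4 in each line with columns centred on their medians and 5 with quantile normalization. With columns centred on genes past the filter it was 13. In the same order, the counts over all 19938 genes were 1362, 3099 and 8537 in Med and 1201, 2940 and 8007 in Hi. Most of the list, 14 of the 19, was short of the filter, where 24.0% of genes were at least 2-fold lower in Med and 22.5% in Hi. Of those past the filter, Gjd3 was at 10.12, 8.21 and 8.36, the lens connexin gene Gja3 at 8.43, 6.97 and 6.97, and Panx2 at 9.13, 7.79 and 7.73. These 3 stayed at least 2-fold lower than Ctrl in both lines under every scaling tried. Gja1 was also the single gene of the 19 at least 2-fold apart between Hi and Med. In that contrast 0.406% of all genes were 2-fold higher and 0.512% lower. The list's median difference was 0 there and that of all genes past the filter was 0.

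**Figure D2:**
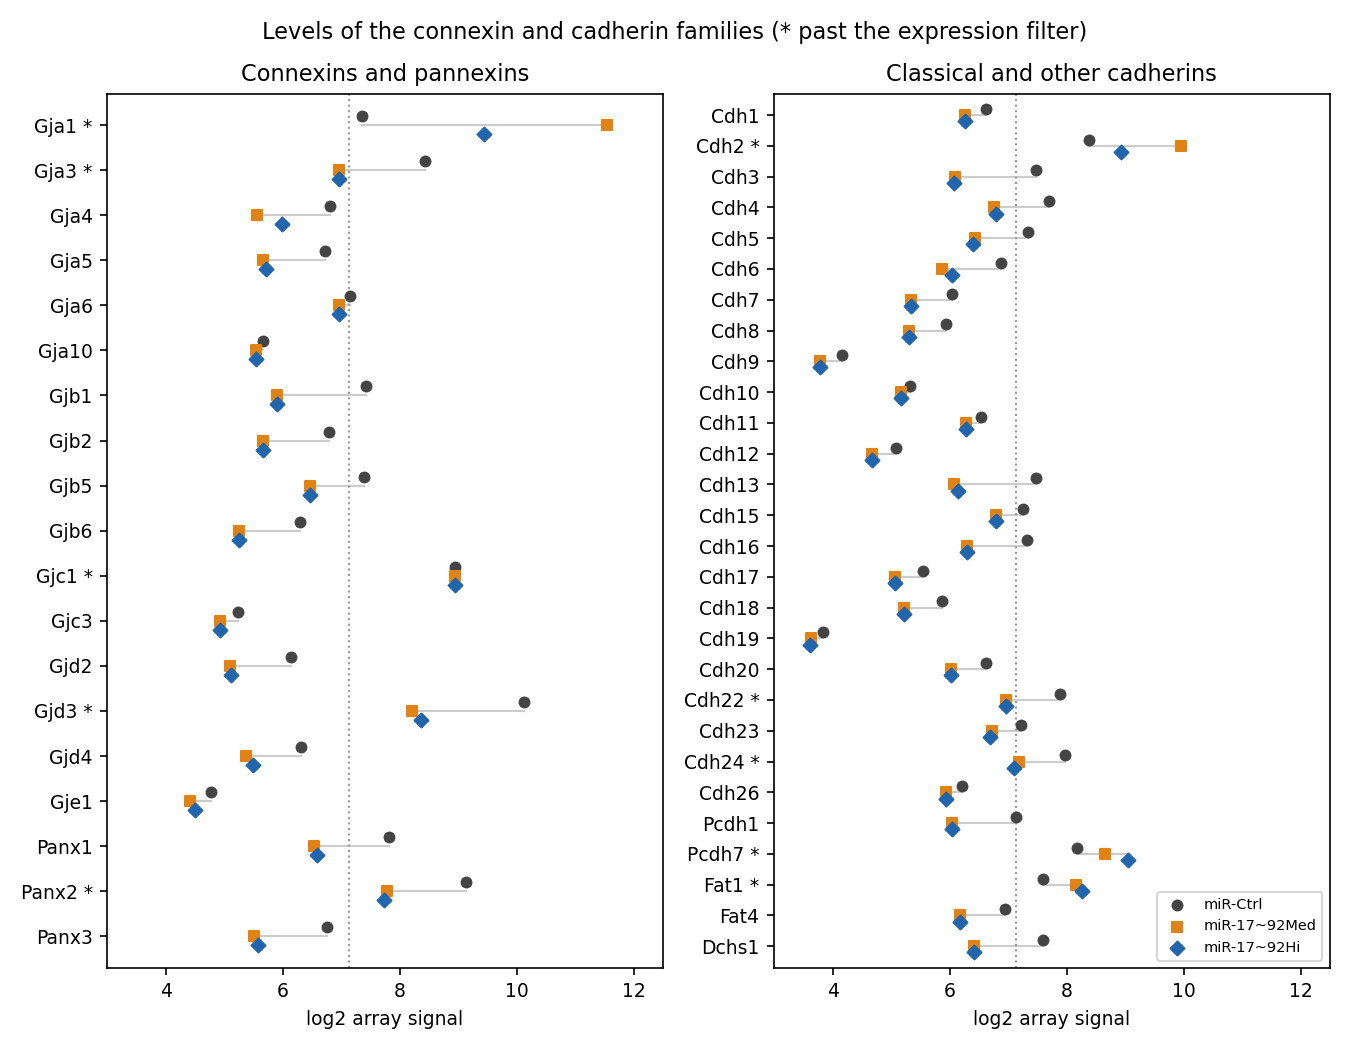
Log2 array signal of each matched gene of the connexin and pannexin list (left) and the cadherin list (right) in the 3 columns, 1 symbol per column; an asterisk marks genes past the expression filter and the dotted line is its level, 7.13. In most rows Med and Hi sit together at the left of Ctrl, while Gja1 and Cdh2 have Med at the right of Hi and both at the right of Ctrl.

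Cdh2, N-cadherin, had a level of 8.39 in Ctrl, against 9.95 in Med and 8.92 in Hi. Med was again the highest column and Ctrl the lowest. Hi minus Med was -1.03, the 79th lowest among genes past the filter and just past 2-fold. It fell short of 2-fold with quantile normalization (-0.88) and with columns centred on genes past the filter (-0.97). Med minus Ctrl was 1.56, and 0.79 with quantile normalization. Hi minus Ctrl was 0.53 as deposited, and its sign turned with quantile normalization (-0.09) and with columns centred on genes past the filter (-0.01). Cdh2 neighbours Chst9 and the desmosomal cadherin Dsc3, which had equal values in Med and Hi. The gene nearest to Cdh2 in shape was Nemp1, a nuclear envelope protein gene, at a distance of 0.05 (7.52, 9.08 and 8.11).

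Cdh1, E-cadherin, was at 6.63 in Ctrl and 6.26 in Med and in Hi, short of the filter in this colon carcinoma line. Its difference from Ctrl, -0.37, was smaller in size than the median of genes short of the filter, -0.67 in Med and -0.65 in Hi. Cdh3, P-cadherin, is the gene next to Cdh1 in the RefSeq order. Its level was 7.48 in Ctrl, against 6.10 in Med and 6.08 in Hi, with differences from Ctrl of -1.39 and -1.40 that stayed past 2-fold under every scaling tried. Its mean level was short of the filter too.

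Cdh11, a cadherin of mesenchymal cells, was at 6.54 in Ctrl and 6.29 in Med and in Hi by its own probe set. The sign of that small difference, -0.25, turned with columns centred on their medians (0.04 in Med and 0.03 in Hi) and with quantile normalization. A further 3 probe sets are listed under Cdh11 together with 6820431F20Rik and 2610005L07Rik, which RefSeq lists as transcribed pseudogenes. Those 3 were between 6.14 and 6.72 in Ctrl, between 10.70 and 11.97 in Med and between 10.60 and 11.74 in Hi. The probe set listed under 2610005L07Rik alone was at 5.53, 9.99 and 10.07. The shared probe sets thus differed from Ctrl like that pseudogene's own probe set and unlike that of Cdh11 alone. Which transcript they read cannot be told apart here, so Cdh11 is described by its own probe set.

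In the cadherin list of 28 genes, all were matched and 5 passed the filter. Of the 28, 25 were lower and 3 higher than Ctrl in both Med and Hi. Most, 23 of the 28, were short of the filter, where 87.1% of all genes were lower in Med and 86.9% in Hi. The 3 that were higher, Cdh2, the protocadherin Pcdh7 (8.18, 8.65 and 9.05) and the giant cadherin Fat1 (7.60, 8.17 and 8.27), were all past the filter. With columns centred on their medians 7 of the 28 were higher in each line, and with columns centred on genes past the filter 1 in Med and 2 in Hi. Of all 19938 genes, 10616 in Med and 10611 in Hi were higher with the first scaling, and 4764 and 4798 with the second. As deposited 6800 and 6744 were. With quantile normalization the median of the 5 past the filter went from 0.47 to -0.08 for Med minus Ctrl. For Hi minus Ctrl it went from 0.53 to -0.09. That of all genes past the filter went from 0.42 to -0.05 and from 0.39 to -0.04. At least 2-fold lower were 6 of the 28 in Med, and 5 in Hi, beside 16.3% and 15.4% of all genes. With columns centred on their medians 2 were in each line, and with columns centred on genes past the filter 19 in Med and 18 in Hi. All 19938 genes gave 1362 in Med and 1201 in Hi with the first scaling, and 8537 and 8007 with the second. Cdh2 was the single gene of the 28 that was 2-fold apart between Hi and Med, beside 0.406% of all genes higher and 0.512% lower. The endothelial cadherin Cdh5 was at 7.34, 6.43 and 6.40 and the intestinal cadherin Cdh17 at 5.55, 5.06 and 5.06, both short of the filter. Pcdh7, Fat1, Cdh5 and Cdh17 were named after their values were seen.

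Tjp1 encodes ZO-1, which links tight junctions and connexin plaques to actin. Its level was 7.69 in Ctrl, against 10.16 in Med and 10.29 in Hi. Both lines with the cluster were above Ctrl, by 2.47 and 2.59, and the values stayed between 1.87 and 2.88 across the scalings tried. Hi minus Med was 0.12, under 2-fold. Tjp1's difference from Ctrl was the 1008th highest in Med and the 797th in Hi. Its neighbours Nsmce3 and Tarsl2 differed from Ctrl by -0.10 and 0.16, with equal values in Med and Hi. Nearest to Tjp1 in shape was the transcription coactivator gene Sub1, at a distance of 0.01 (8.18, 10.66 and 10.77).

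Counted over the 8 genes, Gja1, Cdh2 and Tjp1 were at least 2-fold higher in Med than in Ctrl and Gjb2 and Cdh3 lower. The background was 18.3% of all genes higher and 16.3% lower. At the same threshold Gja1 and Tjp1 were higher and Gjb2 and Cdh3 lower in Hi than in Ctrl. There the background was 17.5% of all genes higher and 15.4% lower. Between Hi and Med, 0 were at least 2-fold higher and 2 lower, where 0.406% of all genes were higher and 0.512% lower. Because the genes were listed with these contrasts known, nothing is read from these counts. Both comparisons with Ctrl share the same Ctrl column.

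Past the filter stood 4 of the 8, Gja1, Gjc1, Cdh2 and Tjp1. Of these, 3 were higher in Med and 2 in Hi than in Ctrl, with none lower. Of all genes past the filter, 34.9% were higher than Ctrl in Med and 33.5% were in Hi, while 8.7% and 8.4% were lower. For Hi minus Med the shares were 0.682% higher and 0.863% lower.

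**Figure D3:**
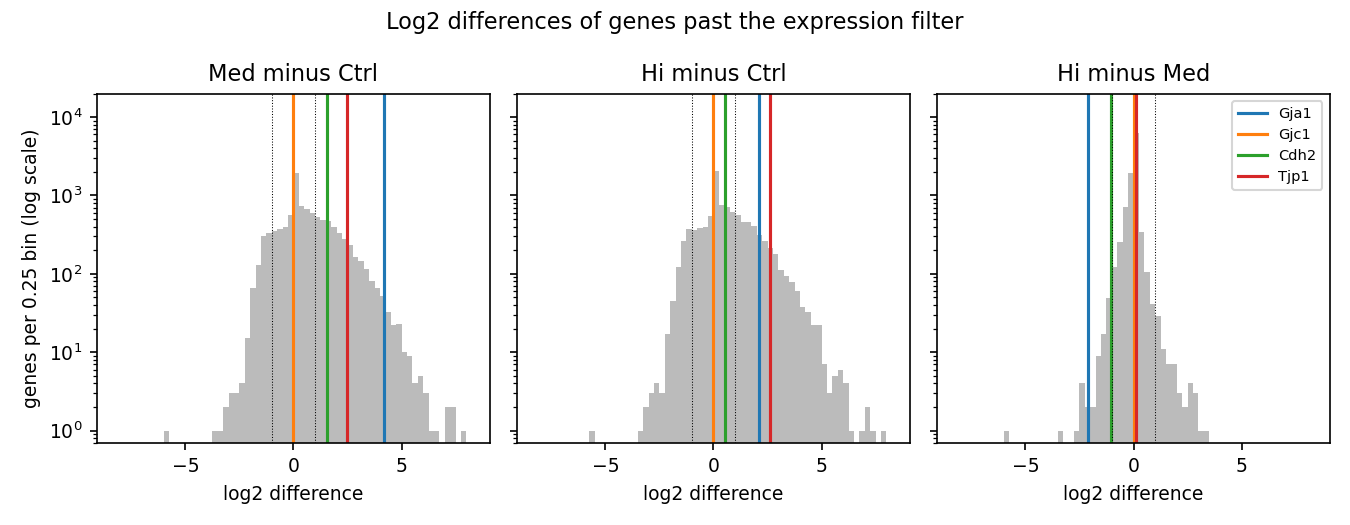
Distribution of the log2 difference over the 9969 genes past the expression filter in each comparison, as genes per 0.25 bin on a log axis, with vertical lines at Gja1, Gjc1, Cdh2 and Tjp1 and dotted lines at 2-fold. Gja1 lies at -2.11 in the narrow Hi minus Med distribution, and within the wide shoulder of higher genes in both comparisons with Ctrl.

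The catenins and other partners of cadherins form a list of 18 genes, of which 12 passed the filter. Of these, 5 were at least 2-fold higher and 0 lower than Ctrl in both Med and Hi. Among all genes past the filter 34.9% were higher in Med and 33.5% in Hi. Over all 18 genes of the list, 5 were higher and 2 lower in both lines, beside 3350 and 2941 of all 19938 genes. The median difference of the 12 was 0.61 in Med and 0.34 in Hi, beside 0.42 and 0.39 for all genes past the filter. With columns centred on genes past the filter it was 0.02 in Med and -0.20 in Hi, beside -0.17 and -0.15. Its sign in Hi depends on the scaling, as does that of all genes past the filter. Beta-catenin (Ctnnb1), which binds the cadherin tail, was at 9.35, 11.75 and 11.75. The p120 catenin gene Ctnnd1, which holds cadherins at the membrane, was at 7.88, 10.36 and 10.40. Afadin (Afdn), the nectin anchor, was at 8.33, 10.59 and 10.35, and the nectin-like receptor Pvr at 6.73, 10.48 and 9.65. Alpha-catenin (Ctnna1), the link to actin, was at 10.70, 10.48 and 10.48, and plakoglobin (Jup) at 7.44, 7.04 and 7.61, both named after their values were seen. None of the 12 was 2-fold apart between Hi and Med, beside 0.682% of genes past the filter higher and 0.863% lower. Pvr had the lowest value, -0.83.

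Of 27 tight junction genes 26 were matched and 13 passed the filter. In each line 6 of them were at least 2-fold higher than Ctrl, 5 of them in both lines, and 2 were lower in both. Of all genes past the filter, 34.9% were higher in Med and 33.5% in Hi, and 8.7% and 8.4% were lower. Over all 26 matched genes, 5 were higher and 6 lower in both lines, beside 3350 and 2941 of all 19938 genes. Magi1, a scaffold protein gene, was 2-fold higher in Med alone (a difference of 1.17, against 0.82 in Hi), and the polarity scaffold gene Patj in Hi alone (1.15, against 0.62 in Med). The medians of the 13 were 0.66 and 0.82, beside 0.42 and 0.39 for all genes past the filter. With columns centred on genes past the filter 3 were higher and 3 lower in each line, with medians of 0.06 and 0.28. In Med 2282 of the 9969 genes past the filter were then 2-fold higher and 1746 lower, and in Hi 2230 and 1637. Their medians were -0.17 and -0.15. The adhesion molecule F11r was at 7.42, 10.25 and 10.13 and the claudin Cldn12 at 6.44, 8.85 and 8.70. The epithelial claudin Cldn3 was at 8.77, 7.15 and 7.37. Occludin (Ocln), a transmembrane tight junction protein, was at 5.73, 5.71 and 5.71, short of the filter. Ocln, Magi1 and Patj were named after their values were seen. Between Hi and Med none of the 26 was 2-fold apart, beside 0.406% of all genes higher and 0.512% lower.

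Of the desmosome list 5 of 10 matched genes passed the filter. Desmoplakin (Dsp), which ties desmosomes to keratin, was at 7.79, 9.58 and 9.54. The plakophilin Pkp1 was at 8.16 in Ctrl and 6.98 in Med and in Hi, a difference under 2-fold when columns are centred on their medians. These were the only genes of the 10 that were 2-fold from Ctrl. The shares of all genes were 18.3% higher and 16.3% lower in Med, and 17.5% and 15.4% in Hi. None of the 10 was 2-fold apart between Hi and Med, beside 0.406% of all genes higher and 0.512% lower. The median of the 5 was 0.74 in Med and 0.65 in Hi, beside 0.42 and 0.39 for all genes past the filter. It was 0.15 and 0.08 with quantile normalization, beside -0.05 and -0.04 for all genes past the filter.

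**Figure D4:**
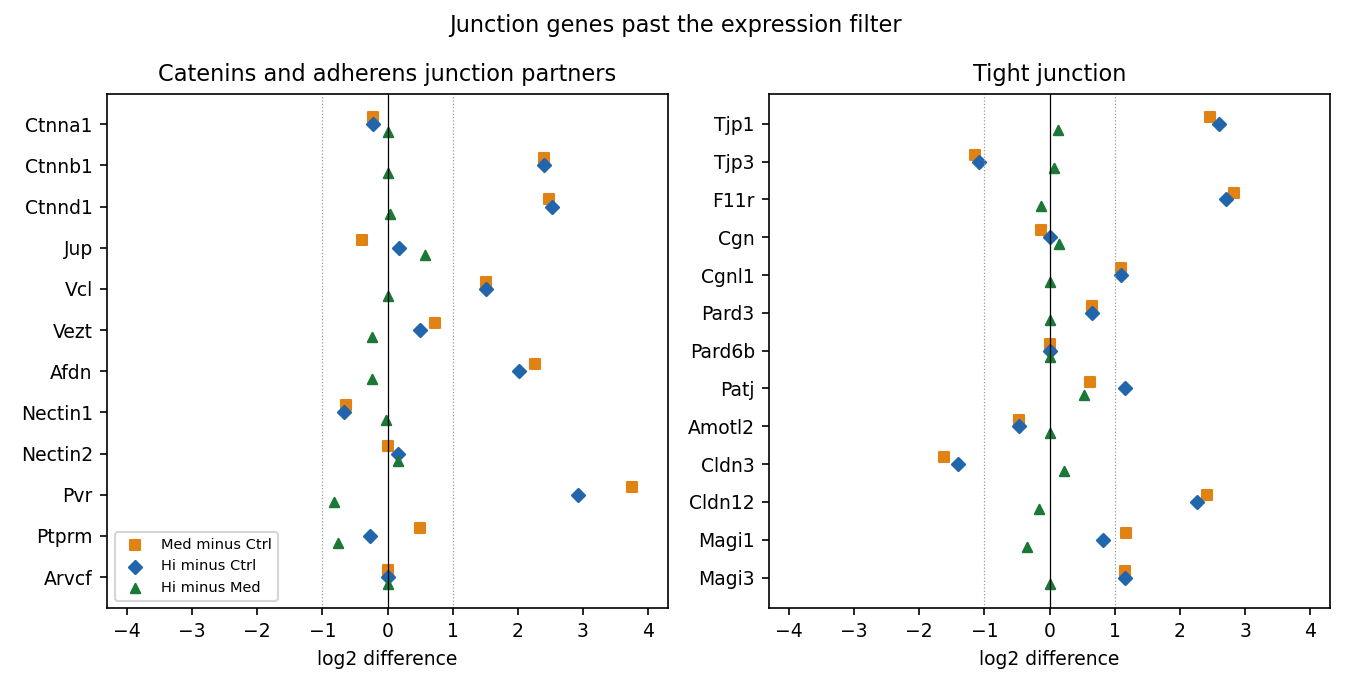
Log2 differences of the adherens junction list (left) and the tight junction list (right), genes past the expression filter only, with 1 symbol for each of Med minus Ctrl, Hi minus Ctrl and Hi minus Med; dotted lines mark 2-fold. The Hi minus Med symbols stay between -0.83 and 0.57, while Pvr, F11r, Tjp1, Ctnnd1, Ctnnb1, Cldn12 and Afdn lie beyond 2 in both comparisons with Ctrl.

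Genes that act on connexin 43 after it is made were listed too. Of 21 names 17 were matched and 16 passed the filter. In both Med and Hi, 8 of the 16 were at least 2-fold higher than Ctrl and 0 lower, with medians of 1.20 and 1.13. Of all genes past the filter 34.9% and 33.5% were higher, with medians of 0.42 and 0.39. Over all 17 matched genes, 8 were higher and 1 lower in both lines, beside 3350 and 2941 of all 19938 genes. With quantile normalization, 4 of the 16 were higher and 1 lower in each line, with medians of 0.28 and 0.23. Then 2552 of the 9969 genes past the filter were higher and 1750 lower in Med, and 2512 and 1659 in Hi. Their medians were -0.05 and -0.04. The ubiquitin ligase Nedd4, which marks connexin 43 for removal, was at 7.04, 12.67 and 12.37. Caveolin 2 (Cav2), a membrane coat protein, was at 5.67, 9.56 and 8.71, and the kinase Prkca, which phosphorylates connexin 43, at 7.44, 9.57 and 9.52. The 14-3-3 gene Ywhab was at 9.27, 11.15 and 11.15, under 2-fold with quantile normalization. None of the list was 2-fold apart between Hi and Med, where 0.406% of all genes were 2-fold higher and 0.512% lower.

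Genes of cadherin cleavage and uptake numbered 13, of which 10 passed the filter. In both lines 5 were at least 2-fold higher and 1 lower than Ctrl, with medians of 0.86 and 0.85. Among all genes past the filter the higher share was 34.9% in Med and 33.5% in Hi, the lower share 8.7% and 8.4%, and the medians 0.42 and 0.39. With columns centred on genes past the filter, 2 were higher and 3 lower, with medians of 0.26 and 0.31. All genes past the filter then had 2282 higher and 1746 lower in Med, 2230 and 1637 in Hi, and medians of -0.17 and -0.15. The protease Adam10, which sheds E- and N-cadherin, was at 7.73 in Ctrl and 10.02 in Med and in Hi. The gamma-secretase subunit Ncstn was at 7.71, 10.23 and 10.31. The ubiquitin ligase Itch (8.15, 9.31 and 9.31) and the endocytic adaptor Dab2 (6.49, 7.66 and 7.74) were under 2-fold with columns centred on genes past the filter. None was 2-fold apart between Hi and Med, beside 0.682% of all genes past the filter higher and 0.863% lower.

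Of 20 repressors and activators of Cdh1, 11 passed the filter. In Med 1 was at least 2-fold higher and 1 lower than Ctrl, and in Hi 1 was higher and 0 lower. Of all genes past the filter 34.9% and 33.5% were higher, and 8.7% and 8.4% lower. With quantile normalization 0 were higher, and 3 were lower in Med and 4 in Hi. The lower count of all 9969 genes past the filter was then 1750 in Med and 1659 in Hi. The gene higher as deposited was the E2-2 gene Tcf4 (8.58, 10.08 and 9.68), under 2-fold with quantile normalization. Medians of the 11 were -0.12 and -0.26, beside 0.42 and 0.39 for all genes past the filter. With columns centred on their medians they were 0.18 and 0.03, beside 0.72 and 0.67. Snail (Snai1), a repressor that binds E-boxes, was at 8.65 in every column. Zeb2, another such repressor, was at 9.07, 8.98 and 8.77 and Twist1 at 9.09, 8.34 and 8.34. Those 3 were named after their values were seen.

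Epithelial and intestinal markers were mostly short of the filter. Of 20 matched, 7 passed it, and Epcam (6.15, 5.14 and 5.14), villin (Vil1, 6.34, 5.93 and 5.93) and Cdx2 (6.79, 5.77 and 5.89) did not. Keratin 18 (Krt18) was at 7.97, 11.41 and 12.28, and its partner keratin 8 (Krt8) at 8.92, 7.28 and 7.32. The intestinal factor Cdx1 was at 8.95, 7.24 and 7.45, and the trefoil factor Tff3 was lower than Ctrl by a difference of -1.49 in Med and -1.29 in Hi. Tff3 in Hi was just short of 2-fold with columns centred on their medians. Past the filter, 1 was 2-fold higher and 3 lower than Ctrl in both lines, beside 34.9% and 33.5% of all such genes higher and 8.7% and 8.4% lower. The 3 lower in Hi became 2 with columns centred on their medians, while the 837 of all genes past the filter became 416. None of the 7 was 2-fold apart between Hi and Med, beside 0.682% of genes past the filter higher and 0.863% lower. By any amount, 6 of the 7 were higher in Hi, and the median of the 7 was 0.21. Of all genes past the filter, 77.2% had a Hi minus Med difference of 0 or below, and the median was 0.

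Mesenchymal and fibroblast markers had 10 of 17 genes past the filter, with 5 at least 2-fold higher and 4 lower than Ctrl in both lines. The shares of all genes past the filter were 34.9% and 33.5% higher and 8.7% and 8.4% lower. The lower count was 3 in Med and 1 in Hi with columns centred on their medians. That of all genes past the filter went from 867 to 469 in Med and from 837 to 416 in Hi. Over all 17 genes 12 were lower than Ctrl in both lines, beside 11046 of all 19938 genes. Fibronectin (Fn1) was at 8.69, 13.45 and 13.32, S100a4 at 7.56, 11.22 and 11.66, and the receptor Pdgfra at 7.26, 9.79 and 10.27. Smooth muscle actin (Acta2) was at 9.67, 6.42 and 6.42. Between Hi and Med 0 of the 17 were 2-fold apart, beside 0.406% of all genes higher and 0.512% lower. Of endothelial, leukocyte and neural markers 1 of 15, the myelin gene Mbp (7.96, 6.56 and 6.89), passed the filter, and Pecam1, Ptprc and Cd3e were short of it. All 15 were lower in Med and in Hi than in Ctrl, and 14 of them were short of the filter, where 87.1% and 86.9% of all genes were lower.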

How the data were processed

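RNA of CT26 lines was amplified with random primers, labelled with biotin and hybridized to an Affymetrix array, per the labels' protocols. The submitters' processing notes list GCRMA, which corrects background and normalizes, beside Affymetrix Expression Console, with no version or order. The deposited values are normalized per the labels, and were taken as log2 from their range of 2.13 to 14.8, since no source states the log base. Scaling between arrays and summary over probes were done before deposit, and differences between columns cannot separate those steps from the cells.

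Probe sets were named from GEO's annotation of the platform, which is old, with symbols updated through gene numbers to RefSeq's table for GRCm38.p6. Of the probe sets, 21789 had 1 gene, 1621 several and 12146 none, and 99.6% of the first kind were matched. Probe sets of a gene were averaged (999 genes had over 1), and those of several genes named none. The filter kept genes with a mean at or above the median. A gene was counted as apart at an absolute log2 difference of 1, with no test, since each group has 1 column. Counting was tested on simulated data.

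The 8 genes and the 11 gene lists were chosen with earlier results of these data known. The naming rule took the 8 genes, up to 4 per list that passed the filter and were 2-fold apart between Hi and Med or from Ctrl in both lines, and the genes, predicted and clone names left out, nearest in shape to Gja1 (5) and to other genes past the filter (1 each; 1029 genes tie with Gjc1, so none is named). Alternatives were centred columns, quantile normalization, other probe set summaries, other thresholds and no filter. Python 3.11.15, pandas 2.3.3 and NumPy 2.4.6 were used.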

Additional observations from a re-analysis of the deposited data

Results flagged for a closer look

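Probe sets outside the main measurement gave a signal well above the control column. The 3 probe sets listed under Cdh11 and 2 pseudogenes were higher in Hi than in Ctrl by 5.02, 4.46 and 5.01 on the log2 scale, and higher in Med by 5.24, 4.56 and 5.12. They entered no main comparison because each is listed under several genes, and were used only in the setting that adds such probe sets. Cdh11's own probe set differed by -0.25 in both lines, and the probe set of the pseudogene 2610005L07Rik by 4.47 in Med and 4.54 in Hi.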

How the results depend on the processing

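Gja1 in all 3 comparisons, Tjp1 and Cdh3 in both comparisons with Ctrl kept their direction and stayed past 2-fold under each scaling tried. Each has 1 probe set and is in no probe set of several genes. The other probe set summaries therefore could not change their values and say nothing on them. With probe sets of several genes added, Cdh11 turned from -0.25 to 3.67 for Med minus Ctrl and to 3.56 for Hi minus Ctrl, since 3 further probe sets then enter its mean. Gjb2 fell short of 2-fold with columns centred on their medians (-0.83 and -0.84) and with quantile normalization (-0.79 and -0.81). For Med minus Ctrl, Cdh2 was at 0.79 with quantile normalization and 0.97 with columns centred on genes past the filter, a scaling chosen after seeing the data. For Hi minus Med it was at -0.88 and -0.97. The cause was not tested for Gjb2 and Cdh2. Of the 8 genes, those 2-fold apart numbered 5, 4 and 2 for Med minus Ctrl, Hi minus Ctrl and Hi minus Med. With quantile normalization they were 3 for Med minus Ctrl and 1 for Hi minus Med. At a threshold of 1.5 they were 3, 2 and 1, and with columns centred on genes past the filter 1 for Hi minus Med.

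Over all genes past the filter, 4342, 4172 and 154 were 2-fold apart in the order Med minus Ctrl, Hi minus Ctrl and Hi minus Med. At a threshold of 1.5 these were 2693, 2519 and 48. With no filter the comparisons with Ctrl gave 6911 and 6562, and quantile normalization gave 100 for Hi minus Med. In these counts and the shares below, the filter was set anew on the rescaled values. The gene lists above kept the filter of the deposited values, so their quantile-normalized counts of all genes differ from these. The share higher among genes 2-fold from Ctrl was 80.0% in Med and 79.9% in Hi. It was 57.0% and 57.9% with quantile normalization, 89.9% and 90.7% with columns centred on their medians, 56.7% and 57.7% when centred on genes past the filter, and 52.9% and 53.1% with no filter. For Hi minus Med it was 44.2%, and 53.0% with quantile normalization. Centring on the medians raises each difference from Ctrl by 0.30 in Med and 0.29 in Hi, while centring on genes past the filter lowers it by 0.60 and 0.54.

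No paired analysis was possible because each group has 1 column and the labels give no replicate numbers. For the same reason no replicate was left out. Gjb2, Cdh1, Cdh3 and Cdh11 were short of the filter, and no detection call was used here.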
